A study of Mus musculus with 16 samples.

Results

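Iron handling was followed through 10 genes, Slc40a1, Cp, Fth1, Ftl1, Ncoa4, Tfrc, Steap3, Slc11a1, Slc11a2 and Hmox1, in macrophages grown from mouse bone marrow. They were chosen by their symbols in the GENCODE M21 annotation, and all 10 were found among the 54532 gene identifiers of the count tables. Marrow was grown in M-CSF, the growth factor of macrophages, at 20 ng/mL until day 7, and the cells were then cultured, for 24 h as the protocol reads, with or without 70% of medium conditioned by YUMM1.7 mouse melanoma cells (TCM). The groups were TRAP1 KO TCM (TRAP1 knockout given TCM, n = 4), WT TCM (wild type given TCM, n = 3), WT naive (wild type without it, n = 3), JMJD3 cKO TCM (conditional JMJD3 knockout given TCM, n = 3) and JMJD3 WT TCM (its wild-type control given TCM, n = 3), so that every knockout library and its own control had received TCM. Total RNA was sequenced after removal of ribosomal RNA. TRAP1 is a mitochondrial chaperone, and JMJD3, encoded by Kdm6b, is a demethylase of histone H3. The sources used here do not give the promoter that drives recombination in the JMJD3 line, the exons removed, or the age and strain of the mice. They do not say either whether replicates come from separate mice or cultures, and p-values then reflect only the spread among libraries, which may be technical.

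Macrophages recycle the iron of engulfed red cells. Haem oxygenase opens the haem ring and frees the metal, ferritin stores it, ferroportin carries it out of the cell, and the transferrin receptor brings new iron in. Cells also sense iron through iron regulatory proteins, which bind a hairpin called the iron-responsive element: bound near the start of a transcript they block its translation, and bound behind the coding part of the transferrin receptor transcript they protect that transcript from decay.

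The element was searched in the untranslated regions of the GENCODE M21 transcripts (GRCm38) on the transcript strand as a C, 5 bases of any kind and the loop CAGTGN, with those 5 bases pairing with the 5 behind the loop (Watson-Crick or G-U). It was found in 4 of the 10 genes, against 175 of 21212 protein-coding genes searched (0.825%). The transferrin receptor, whose element is described above, was among the genes chosen, so the share over all genes is given for scale and is no test. Slc40a1, Fth1 and Ftl1 held it once, in the 5′ UTR, and Tfrc held it 4 times in the 3′ UTR, so genes of export, storage and import carry the same hairpin at opposite ends of their transcripts. The matches are given as 30 bases from the 5′ end, with the bulged C and the 6-base loop in capitals, because this hairpin links iron to the transcripts of these 4 members. They are a description of the letters, and binding was not measured. The search takes only this form of the element: Slc11a2, which had no match, is known to have a transcript form with an element of another shape.
Slc40a1: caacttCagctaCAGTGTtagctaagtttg
Fth1: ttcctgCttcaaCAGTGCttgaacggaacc
Ftl1: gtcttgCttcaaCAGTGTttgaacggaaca
Tfrc element 1: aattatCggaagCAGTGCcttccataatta
Tfrc element 2: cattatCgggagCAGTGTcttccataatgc
Tfrc element 3: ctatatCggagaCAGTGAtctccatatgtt
Tfrc element 4: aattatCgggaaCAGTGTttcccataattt
The Slc40a1 match lies at chr1:45925464-45925493 (minus strand), the Fth1 match at chr19:9982732-9982761 (plus strand) and the Ftl1 match at chr7:45459778-45459807 (minus strand), each in the first exon of its transcript. The Tfrc matches lie in exon 19, at chr16:32631219-32631248, chr16:32631598-32631627, chr16:32631663-32631692 and chr16:32631710-32631739 (plus strand).

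**Figure D1:**
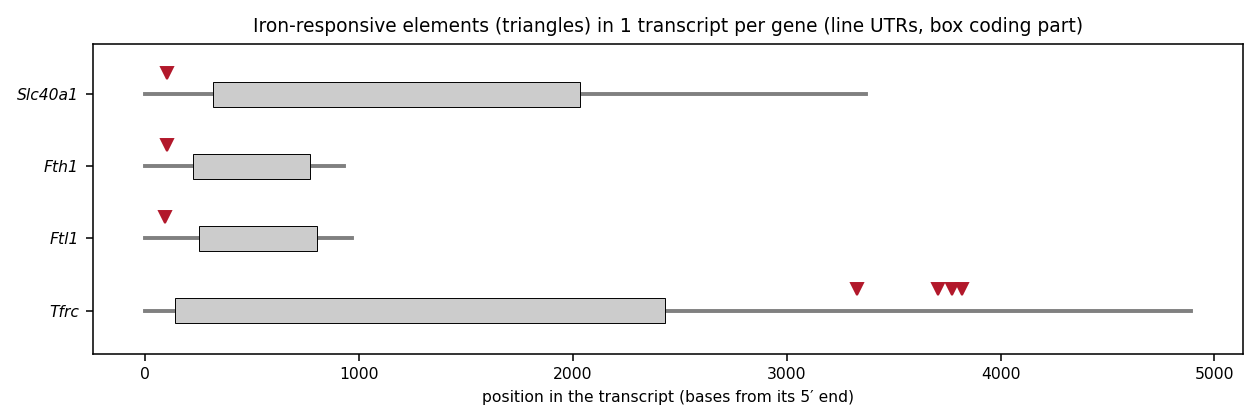
Position of the iron-responsive elements in 1 GENCODE M21 transcript each of Slc40a1, Fth1, Ftl1 and Tfrc, in bases from the 5′ end of the transcript (lines are UTRs, boxes the coding part, triangles the matches). The single match of Slc40a1, Fth1 and Ftl1 lies before the coding part, and the 4 matches of Tfrc lie behind it.

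The libraries held 15361604 to 22426820 counts. Trap1 was at 0.0535, 0.0475, 0.0496 and 0 CPM (counts relative to TMM-scaled library totals) in TRAP1 KO TCM and at 61.4, 71.5 and 70.2 CPM in WT TCM. Kdm6b was not lower in the libraries labelled JMJD3 cKO TCM (26.1, 24.4 and 26.3 CPM) than in JMJD3 WT TCM (26.7, 25.1 and 23.3 CPM, log2 fold change 0.04 with SE 0.071, adjusted p = 0.75). Whole-gene counts cannot show whether some exons are gone. Kdm6b was higher in TRAP1 KO TCM than in WT TCM (log2 fold change 0.63, adjusted p = 8.4e-09). It was also higher with TCM alone (1.21, adjusted p = 5.8e-16). Trap1 was higher in the libraries labelled JMJD3 cKO TCM than in JMJD3 WT TCM (0.22, adjusted p = 5.1e-04). Macrophage markers summed to 24272 to 24522 CPM in TRAP1 KO TCM, 25510.5 to 25978 CPM in WT TCM and 15584 to 15797 CPM in WT naive. They summed to 12421 to 12792 CPM in JMJD3 cKO TCM and 15672 to 16079.7 CPM in JMJD3 WT TCM. The sums did not overlap in any of the 3 comparisons, but the 7 markers did not move together. In TRAP1 KO TCM against WT TCM 2 rose and 4 fell (median log2 fold change -0.05), beside 42.2% of all genes called. In WT TCM against WT naive 4 rose and 3 fell (median 0.10), beside 42.2%. In JMJD3 cKO TCM against JMJD3 WT TCM 3 rose and 4 fell (median -0.09), beside 35.1%. Dendritic markers were low, with 3.80 to 5.17 CPM in JMJD3 cKO TCM and 8.04 to 10.4 CPM in JMJD3 WT TCM. Among erythroid markers, Hbb-bs had 0 counts in every library, and the list summed to at most 2.17 CPM. Fibroblast markers were low but moved with the TRAP1 comparison: all 3 tested of 6 rose, beside 21.2% of all genes called higher. These 3 lay near 0 in WT TCM and can have passed the filter on low counts only through groups where they were higher. The 6 summed to 4.71 to 6.95 CPM in TRAP1 KO TCM, 0.165 to 0.403 CPM in WT TCM, with Col3a1, Dcn and Pdgfra at 0, and 13.3 to 14.4 CPM in WT naive. The part of these marker shifts in the results for the members was not tested. Xist was at 918 and 844 CPM in JMJD3 cKO TCM and JMJD3 WT TCM and had at most 1 count per group elsewhere, so line and sex cannot be told apart, and each knockout is compared within its own set.

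Transcripts of ferroportin, ceruloplasmin and the transferrin receptor were higher in TRAP1 knockout macrophages, and those of the ferritin heavy chain and of its autophagy receptor were lower. Of the 10 genes, 4 rose and 3 fell in TRAP1 KO TCM against WT TCM, where 42.2% of all 14078 genes tested were called at an adjusted p under 0.05 (21.2% higher and 21.0% lower). With TCM alone, 5 rose and 4 fell (WT TCM against WT naive), beside 42.2% of all genes (21.6% higher and 20.6% lower). In the libraries labelled JMJD3 cKO TCM against JMJD3 WT TCM, 2 rose and 5 fell, beside 35.1% of 13476 genes (17.3% higher and 17.8% lower). The test of the difference between the knockout effects called 4 of the 10 higher and 2 lower, beside 37.9% of all genes (18.4% and 19.5%). The groups did not overlap in CPM for 8, 9 and 8 of the 10 in the 3 comparisons, beside 43.0%, 50.1% and 44.9% of all genes. All 10 passed the filter on low counts in each fit. The median log2 fold change of the 10 was -0.01, 0.04 and -0.11 in these 3 comparisons, beside 0.01, -0.01 and 0.01 over all genes, and members were called in both directions in each.

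**Figure D2:**
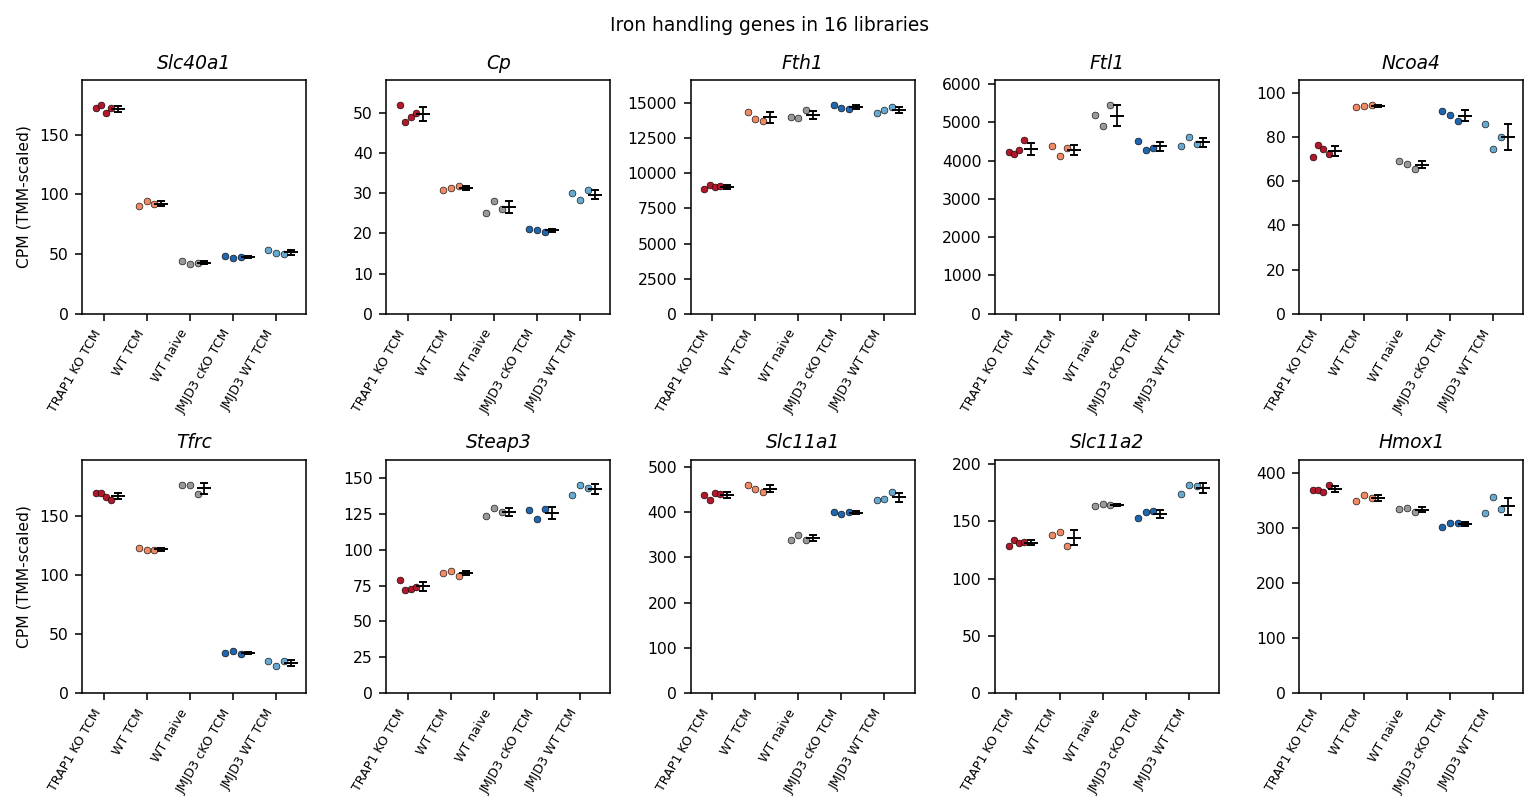
CPM of the 10 genes in each of the 16 libraries (points), with the mean and SD of each group (bars), on axes that start at 0. Slc40a1 lies highest in TRAP1 KO TCM (172 CPM on average) and Fth1 lowest there (9049 CPM), while Tfrc lies at 34.2 CPM in JMJD3 cKO TCM and 25.7 CPM in JMJD3 WT TCM.

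Slc40a1 (ENSMUSG00000025993, chromosome 1, 45908068 to 45926523, minus strand) encodes ferroportin, the only iron exporter known in mammalian cells. Slc40a1 was at 172, 175, 168 and 172 CPM in the 4 TRAP1 KO TCM libraries, 90.5, 94.6 and 91.7 CPM in WT TCM and 44.02, 41.3 and 42.9 CPM in WT naive. The 3 groups did not overlap. It rose in TRAP1 KO TCM (log2 fold change 0.91 with SE 0.03, adjusted p = 5.3e-45) and, with TCM alone, in WT TCM (log2 fold change 1.11 with SE 0.037, adjusted p = 5.5e-45). These comparisons share the WT TCM libraries. By the size of its change Slc40a1 ranked 1017 in TRAP1 KO TCM and 686 with TCM alone, of 14078 genes. In these bulk samples, more RNA per cell and more cells of a type that makes it cannot be told apart. Its level was 48.7, 46.8 and 47.7 CPM in the libraries labelled JMJD3 cKO TCM and 53.8, 50.98 and 49.8 CPM in the JMJD3 WT TCM controls. Both groups of the JMJD3 line lay between WT TCM and WT naive, and the libraries labelled JMJD3 cKO TCM did not pass the test against JMJD3 WT TCM (log2 fold change -0.11, 95% interval -0.21 to 0.00, adjusted p = 0.11), although a fit of all 16 libraries called it (adjusted p = 0.041). The effect of the TRAP1 knockout exceeded that of the JMJD3 knockout by 1.01 on the log2 scale (SE 0.055, adjusted p = 8.6e-30).

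Cp (ENSMUSG00000003617, chromosome 3, 19957054 to 20009145, plus strand) encodes ceruloplasmin, the copper enzyme that oxidises iron as it leaves the cell through ferroportin. Cp was at 51.9, 47.7, 49.1 and 49.9 CPM in the 4 TRAP1 KO TCM libraries, 30.9, 31.3 and 31.7 CPM in WT TCM and 25.2, 28.1 and 26.2 CPM in WT naive. Every TRAP1 KO TCM library lay above every WT TCM library, and those above every WT naive library. Cp rose in TRAP1 KO TCM (log2 fold change 0.67 with SE 0.051, adjusted p = 7.2e-21) and rose less with TCM alone (log2 fold change 0.24 with SE 0.058, adjusted p = 3.7e-04). It stood at 21.1, 20.8 and 20.3 CPM in the libraries labelled JMJD3 cKO TCM and 29.9, 28.4 and 30.7 CPM in the JMJD3 WT TCM controls. Here the direction was the opposite: Cp fell in the libraries labelled JMJD3 cKO TCM (log2 fold change -0.51 with SE 0.07, adjusted p = 8.2e-08). The difference between the knockout effects was 1.18 (adjusted p = 1.5e-22), the widest among the 10 genes. The 108 exon bases that Cp shares with Hps3, a gene on the other strand whose counts come to 222% of those of Cp, are 1.13% of its exon length. The kit keeps the strand of a read, but the sources used here do not say whether counting used it. Hps3 averaged 80.7 CPM in TRAP1 KO TCM and 77.4 CPM in WT TCM (log2 fold change 0.07, adjusted p = 0.12). It averaged 67.4 CPM in JMJD3 cKO TCM and 66.7 CPM in JMJD3 WT TCM (0.02, adjusted p = 0.78).

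Fth1 (ENSMUSG00000024661, chromosome 19, 9980598 to 9985098, plus strand) and Ftl1 (ENSMUSG00000050708, chromosome 7, 45457944 to 45459884, minus strand) encode the heavy and the light chain of ferritin. The heavy chain oxidises iron for storage and the light chain helps to build the mineral core. Fth1 took 0.923 to 0.954% of all counts in TRAP1 KO TCM and 1.41 to 1.48% in WT TCM, and its rank among all genes by count was 3 in TRAP1 KO TCM and 2 or 3 in the other groups. Fth1 was at 8886, 9167, 9017 and 9127 CPM in the 4 TRAP1 KO TCM libraries, 14399, 13846 and 13711 CPM in WT TCM and 14050.5, 13977 and 14485 CPM in WT naive. TRAP1 KO TCM stood apart and the other 2 overlapped. Fth1 fell in TRAP1 KO TCM (log2 fold change -0.62 with SE 0.021, adjusted p = 6.6e-09, down by 34.9%). With TCM alone it did not pass the test (log2 fold change -0.02, 95% interval -0.07 to 0.03, adjusted p = 0.54), but it was called without WT TCM replicate 1 (-0.04, adjusted p = 0.0099). The JMJD3 line gave 14853, 14677 and 14622 CPM in the libraries labelled JMJD3 cKO TCM and 14307, 14485 and 14754 CPM in the JMJD3 WT TCM controls. These overlapped (log2 fold change 0.02, 95% interval -0.02 to 0.07, adjusted p = 0.38), and the knockout effects differed by -0.65 (adjusted p = 1.5e-40).

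The light chain did not follow the heavy chain. Ftl1 was at 4232, 4177, 4270.4 and 4543 CPM in the 4 TRAP1 KO TCM libraries, 4373, 4132 and 4338 CPM in WT TCM and 5187, 4899.7 and 5445 CPM in WT naive. TRAP1 KO TCM and WT TCM overlapped, and both lay below WT naive. Ftl1 did not pass the test in TRAP1 KO TCM (log2 fold change 0.02, 95% interval -0.09 to 0.12, adjusted p = 0.82) and fell with TCM alone (log2 fold change -0.27 with SE 0.048, adjusted p = 0.0022). Its level was 4516, 4274 and 4318 CPM in the libraries labelled JMJD3 cKO TCM and 4376, 4618 and 4426 CPM in the JMJD3 WT TCM controls. The JMJD3 groups overlapped too (log2 fold change -0.03, 95% interval -0.08 to 0.02, adjusted p = 0.36). The annotated copy Ftl1-ps1 on chromosome 13 had 105, 99.1 and 123 CPM in TRAP1 KO TCM, WT TCM and WT naive. How reads shared between ferritin genes and their copies were assigned is not known, which leaves the ferritin values uncertain to that extent.

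Within a library, the ratio of Fth1 to Ftl1 in CPM does not depend on scaling. It was 2.10, 2.19, 2.11 and 2.01 in TRAP1 KO TCM, 3.29, 3.35 and 3.16 in WT TCM and 2.71, 2.85 and 2.66 in WT naive. It was 3.29, 3.43 and 3.39 in the libraries labelled JMJD3 cKO TCM and 3.27, 3.14 and 3.33 in JMJD3 WT TCM. The 4 TRAP1 knockout libraries thus held the 4 lowest ratios of the 16.

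Ncoa4 (ENSMUSG00000056234, chromosome 14, 32159865 to 32179855, plus strand) encodes the receptor that carries ferritin into autophagy, which releases the stored iron. Ncoa4 was at 70.9, 76.5, 74.3 and 72.4 CPM in the 4 TRAP1 KO TCM libraries, 93.3, 93.8 and 94.2 CPM in WT TCM and 68.9, 67.7 and 65.6 CPM in WT naive. The TRAP1 knockout libraries lay between WT TCM and WT naive, without overlap with either. Ncoa4 rose with TCM alone (log2 fold change 0.48 with SE 0.037, adjusted p = 1.3e-20) and fell in TRAP1 KO TCM (log2 fold change -0.34 with SE 0.034, adjusted p = 9.3e-15). These comparisons share the WT TCM libraries, on opposite sides, so their directions are not independent. Ncoa4 stood at 91.9, 90.05 and 86.96 CPM in the libraries labelled JMJD3 cKO TCM and 85.8, 74.3 and 79.8 CPM in the JMJD3 WT TCM controls. It rose in the libraries labelled JMJD3 cKO TCM (log2 fold change 0.17 with SE 0.045, adjusted p = 0.0028), so the knockout effects ran in opposite directions and differed by -0.51 (adjusted p = 1.6e-13).

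**Figure D3:**
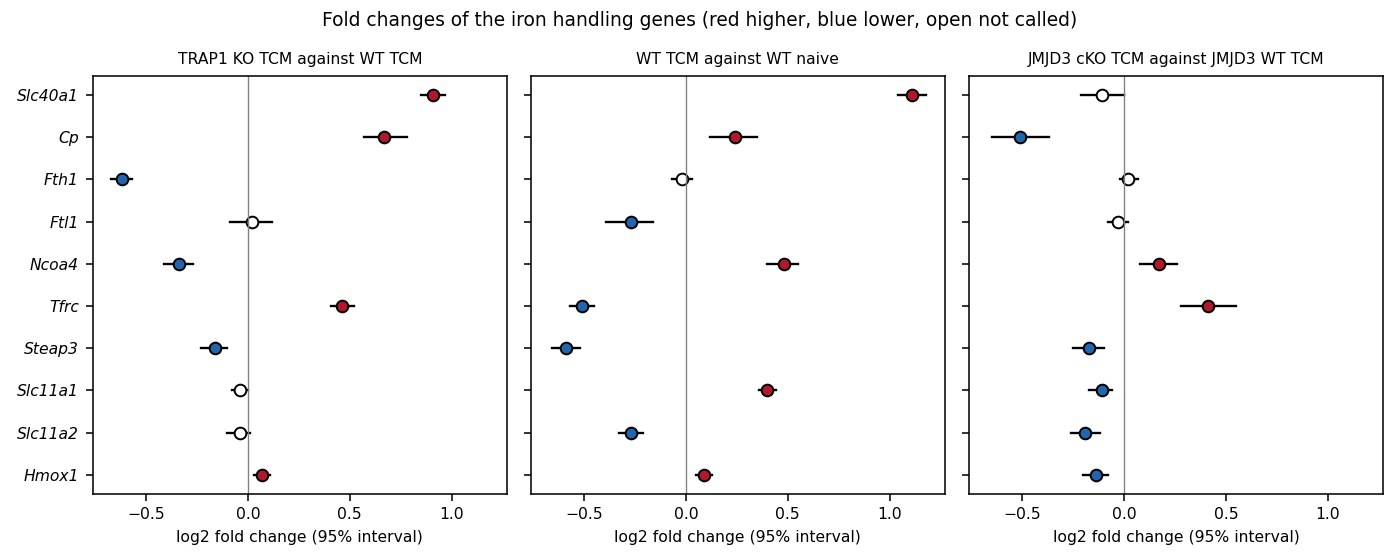
Log2 fold change of each gene with its 95% interval in TRAP1 KO TCM against WT TCM, WT TCM against WT naive and JMJD3 cKO TCM against JMJD3 WT TCM (red points rose, blue points fell, open points did not pass the adjusted p of 0.05). Slc40a1 lies at 0.91 and 1.11 in the first and second panel, Fth1 at -0.62 in the first, and Cp at -0.51 in the third.

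Tfrc (ENSMUSG00000022797, chromosome 16, 32608920 to 32632794, plus strand) encodes the transferrin receptor, which takes iron-loaded transferrin into the cell. Tfrc was at 169.6, 169.8, 166 and 164 CPM in the 4 TRAP1 KO TCM libraries, 124, 121 and 121 CPM in WT TCM and 176, 177 and 169 CPM in WT naive. WT TCM lay below both other groups, and TRAP1 KO TCM overlapped the lowest WT naive library. Tfrc fell with TCM alone (log2 fold change -0.51 with SE 0.029, adjusted p = 4.2e-29) and rose in TRAP1 KO TCM (log2 fold change 0.46 with SE 0.027, adjusted p = 1.6e-27), so that export and import transcripts were both higher in the TRAP1 knockout. The JMJD3 line gave 33.8, 35.3 and 33.6 CPM in the libraries labelled JMJD3 cKO TCM and 27.1, 22.9 and 27.2 CPM in the JMJD3 WT TCM controls. It rose in the libraries labelled JMJD3 cKO TCM as well (log2 fold change 0.41 with SE 0.068, adjusted p = 3.2e-06), and the difference between the knockout effects was not called (0.05, 95% interval -0.07 to 0.17, adjusted p = 0.58). Tfrc, which rose, and Steap3, which fell, were the members called in the same direction in both knockouts.

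Dividing cells take up much iron, and 7 markers of division were measured beside Tfrc. All 7 fell in TRAP1 KO TCM against WT TCM (median log2 fold change -0.89), where Tfrc rose, beside 21.0% of all genes called lower. They summed to 357 to 364 CPM in TRAP1 KO TCM and 651 to 659 CPM in WT TCM. With TCM alone, where Tfrc fell, 6 rose and 1 fell (median 0.29), beside 42.2% of all genes called. The sum ran against that median, with 732 to 748 CPM in WT naive. In the libraries labelled JMJD3 cKO TCM against JMJD3 WT TCM, 6 rose and 1 fell (median 0.68), beside 35.1%, and Tfrc rose. The 1 that fell was Pcna, and the sum ran against the median, with 578 to 584 CPM in JMJD3 cKO TCM and 593 to 664 CPM in JMJD3 WT TCM. Their part in the result was not tested. The wild types of the 2 sets differed in Tfrc more than any knockout did from its control: 25.7 CPM was the mean in JMJD3 WT TCM and 122 CPM that in WT TCM (log2 fold change -2.24 with SE 0.045, adjusted p = 1.7e-64). Between them 6 of the 7 markers were lower in JMJD3 WT TCM (median -1.66), but the sums overlapped. These were 593 to 664 CPM in JMJD3 WT TCM and 651 to 659 CPM in WT TCM. Between these wild types 61.3% of all genes were called. This contrast is one of line, sex and set at once, which cannot be told apart.

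Steap3 (ENSMUSG00000026389, chromosome 1, 120190757 to 120272705, minus strand) encodes the endosomal reductase that prepares transferrin-bound iron for transport. Steap3 was at 78.7, 72.01, 72.7 and 74.2 CPM in the 4 TRAP1 KO TCM libraries, 84.00, 85.2 and 81.96 CPM in WT TCM and 124, 129 and 126 CPM in WT naive. It fell with TCM alone (log2 fold change -0.59 with SE 0.034, adjusted p = 2.8e-28) and by a smaller amount in TRAP1 KO TCM (log2 fold change -0.16 with SE 0.034, adjusted p = 3.8e-05). Its level was 128, 121 and 128 CPM in the libraries labelled JMJD3 cKO TCM and 138, 145 and 143 CPM in the JMJD3 WT TCM controls. The libraries labelled JMJD3 cKO TCM were lower by nearly the same amount as the TRAP1 knockout (log2 fold change -0.17 with SE 0.036, adjusted p = 1.6e-04), and the difference between the effects was 0.01 (95% interval -0.09 to 0.10, adjusted p = 0.94).

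Slc11a2 (ENSMUSG00000023030, chromosome 15, 100387898 to 100425072, minus strand) encodes DMT1, which moves iron out of the endosome. Slc11a2 was at 128, 133, 131 and 132 CPM in the 4 TRAP1 KO TCM libraries, 138, 141 and 128 CPM in WT TCM and 163, 165 and 164 CPM in WT naive. The TRAP1 knockout overlapped WT TCM, and both lay below WT naive. Slc11a2 fell with TCM alone (log2 fold change -0.27 with SE 0.03, adjusted p = 2.7e-13) and did not pass the test in TRAP1 KO TCM (log2 fold change -0.04, 95% interval -0.10 to 0.01, adjusted p = 0.24), where it was called without WT TCM replicate 3 (-0.08, adjusted p = 0.028). It stood at 153, 158 and 159 CPM in the libraries labelled JMJD3 cKO TCM and 174, 182 and 181 CPM in the JMJD3 WT TCM controls. It fell in the libraries labelled JMJD3 cKO TCM (log2 fold change -0.19 with SE 0.034, adjusted p = 1.2e-05). The difference between the knockout effects, 0.14 (adjusted p = 0.0049), was lost without WT TCM replicate 3 (adjusted p = 0.07).

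Slc11a1 (ENSMUSG00000026177, chromosome 1, 74375195 to 74386062, plus strand) encodes NRAMP1, the metal transporter of macrophage phagosomes. Slc11a1 was at 438, 427, 442 and 439.5 CPM in the 4 TRAP1 KO TCM libraries, 460.3, 452 and 443 CPM in WT TCM and 338, 349 and 338 CPM in WT naive. It rose with TCM alone (log2 fold change 0.40 with SE 0.02, adjusted p = 3.5e-32), the opposite of Slc11a2. In TRAP1 KO TCM it lay just under WT TCM without overlap and did not pass the test (log2 fold change -0.04, 95% interval -0.08 to 0.00, adjusted p = 0.062), but it was called under RLE scaling (adjusted p = 0.048), DESeq2 (0.039), a fit of the 2 groups alone (0.024) and without WT TCM replicate 3 (0.024). The JMJD3 line gave 401, 395 and 400.3 CPM in the libraries labelled JMJD3 cKO TCM and 426, 428 and 443 CPM in the JMJD3 WT TCM controls. It fell in the libraries labelled JMJD3 cKO TCM (log2 fold change -0.11 with SE 0.027, adjusted p = 8.9e-04).

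Hmox1 (ENSMUSG00000005413, chromosome 8, 75093621 to 75100589, plus strand) encodes haem oxygenase 1, which frees iron from haem and is induced by oxidative stress. Hmox1 was at 369, 369, 366 and 379 CPM in the 4 TRAP1 KO TCM libraries, 349, 360.2 and 355 CPM in WT TCM and 334, 337 and 329 CPM in WT naive. The groups were ordered without overlap but lay close together. Hmox1 rose in TRAP1 KO TCM (log2 fold change 0.07 with SE 0.02, adjusted p = 0.002) and with TCM alone (log2 fold change 0.09 with SE 0.021, adjusted p = 1.9e-04). Its level was 302, 309 and 309.8 CPM in the libraries labelled JMJD3 cKO TCM and 327, 356 and 334 CPM in the JMJD3 WT TCM controls. It fell in the libraries labelled JMJD3 cKO TCM (log2 fold change -0.14 with SE 0.03, adjusted p = 3.0e-04). Genes called in either comparison had a median change of 0.28 in size on the log2 scale, wider than both changes of Hmox1. Those 2 differed from each other by 0.21 (adjusted p = 3.5e-07).

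The importer was set against the exporter within each library. The ratio of Tfrc to Slc40a1 in CPM was 0.985, 0.972, 0.989 and 0.953 in TRAP1 KO TCM, 1.36, 1.28 and 1.32 in WT TCM and 4.01, 4.28 and 3.93 in WT naive. It was 0.694, 0.754 and 0.704 in the libraries labelled JMJD3 cKO TCM and 0.503, 0.45 and 0.545 in JMJD3 WT TCM. The groups did not overlap, and WT naive stood above all libraries with TCM. With TCM alone Tfrc fell and Slc40a1 rose. In TRAP1 KO TCM both genes were higher than in WT TCM, Slc40a1 by 1.87-fold and Tfrc by 1.38-fold. A ratio of counts is not one of molecules, since the genes differ in length.

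**Figure D4:**
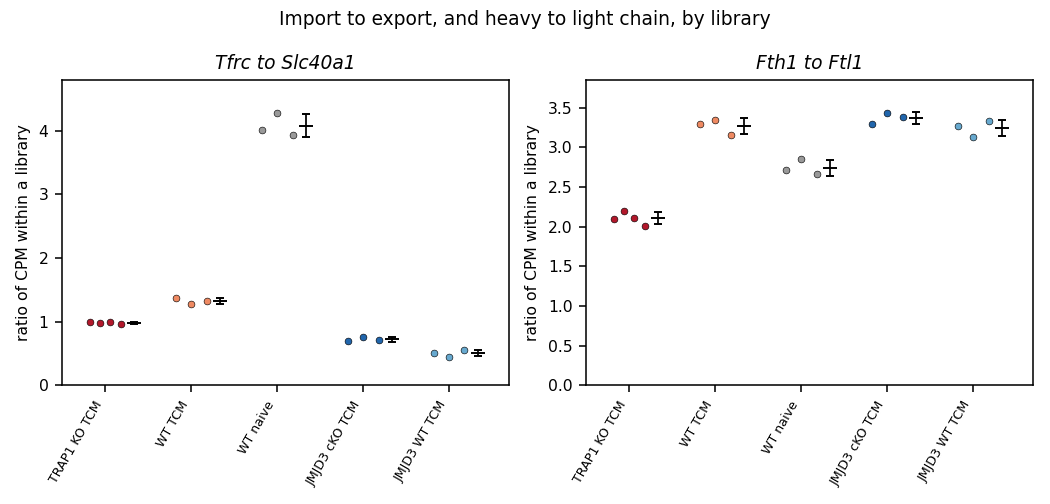
Ratio of Tfrc to Slc40a1 (left) and of Fth1 to Ftl1 (right) in CPM within each of the 16 libraries (points), with the mean and SD of each group (bars), on axes that start at 0. WT naive stands apart on the left at 4.01, 4.28 and 3.93, and TRAP1 KO TCM on the right at 2.10, 2.19, 2.11 and 2.01.

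On a scale of CPM per kb of merged exon length, which allows levels of different genes to be set side by side, storage exceeded all else. In WT TCM the levels were 4032 CPM per kb for Fth1 and 3195 for Ftl1, then 203 for Hmox1 and 122 for Slc11a1. The other 6 genes lay between 3.27 CPM per kb for Cp and 21.4 for Slc11a2. In TRAP1 KO TCM the level of Slc40a1 was 19.1 CPM per kb, against 10.3 in WT TCM. Merged exons include those of rare transcripts, so a gene with long ones, such as Fth1, is understated.

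A further 59 genes of iron and haem metabolism were listed by role, and 57 of them were found by symbol. The symbols Tf and Hjv had no match and were not assessed, which does not show that these genes are absent from the counts under another symbol. Of the 57, 46 passed the filter in the wild-type and TRAP1 set and 45 in the JMJD3 line. Of these, 14 rose and 12 fell in TRAP1 KO TCM against WT TCM, 16 rose and 7 fell with TCM alone, and 12 rose and 10 fell in the libraries labelled JMJD3 cKO TCM. These are 56.5%, 50.0% and 48.9% of the genes tested, beside 42.2%, 42.2% and 35.1% of all genes. In the JMJD3 line, DESeq2 called 13 of them in place of 22, and 3340 of all genes in place of 4728. Hamp, which encodes the hormone hepcidin that removes ferroportin from the cell surface, had 0 to 2 counts per library and was not tested.

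Of the 8 genes tested for uptake and transport of haem and haemoglobin, 2 rose and 3 fell in TRAP1 KO TCM, beside 42.2% of all genes called. Cd163, the scavenger receptor for haemoglobin bound to haptoglobin, averaged 29.8 ± 0.632 CPM in TRAP1 KO TCM and 20.9 ± 1.29 CPM in WT TCM (SD, n = 4 and 3; log2 fold change 0.52 with SE 0.066, adjusted p = 7.2e-11), and it was higher in WT TCM than the 8.66 ± 0.0804 CPM of WT naive (1.27, adjusted p = 3.1e-25). Blvrb, a biliverdin reductase listed under haem breakdown, averaged 229 ± 1.36 CPM in TRAP1 KO TCM and 154 ± 2.26 CPM in WT TCM (log2 fold change 0.58 with SE 0.026, adjusted p = 2.9e-36). It was the only 1 called of the 3 genes listed there, beside 42.2% of all genes called. Blvra, the other biliverdin reductase, was not called and averaged 107 ± 3.23 CPM in TRAP1 KO TCM and 113 ± 3.26 CPM in WT TCM. Slc39a14, the ZIP14 transporter of iron not bound to transferrin, rose in all 3 comparisons, with 81.4 ± 3.999 CPM in TRAP1 KO TCM and 60.01 ± 3.37 CPM in WT TCM (0.45, adjusted p = 7.7e-17), 0.63 for TCM alone and 0.34 in the libraries labelled JMJD3 cKO TCM. Nfe2l2, which encodes the oxidative stress factor NRF2, averaged 312 ± 6.34 CPM in TRAP1 KO TCM and 238 ± 4.55 CPM in WT TCM (log2 fold change 0.40 with SE 0.022, adjusted p = 7.8e-29).

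The haem exporter gene Flvcr1 fell in TRAP1 KO TCM, to 49.98 ± 2.42 CPM against 73.8 ± 3.20 CPM in WT TCM (log2 fold change -0.56 with SE 0.039, adjusted p = 4.2e-23). It fell by as much with TCM alone (-0.56, adjusted p = 2.2e-24). Alas1, the first enzyme of haem synthesis, averaged 61.9 ± 3.13 CPM in TRAP1 KO TCM and 89.6 ± 2.26 CPM in WT TCM (log2 fold change -0.53 with SE 0.037, adjusted p = 6.4e-23). Alad, which acts after it, fell as well (-0.33, adjusted p = 0.0026). The porphyrin transporter gene Abcg2 fell in TRAP1 KO TCM (-0.38, adjusted p = 0.0023), but not when WT TCM replicate 1 was left out (adjusted p = 0.052). Of the 8 genes of haem synthesis, 1 rose and 2 fell (37.5%, beside 42.2% of all genes).

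With TCM alone, the 4 widest rises and the 4 widest falls called among listed genes averaging 5 CPM or more included Cd163, Slc39a14 and Flvcr1. Of the others, Hfe, a partner of the transferrin receptor, rose (0.70, adjusted p = 5.0e-30), and so did Abcg2 (0.58, adjusted p = 1.2e-05). Epas1, the hypoxia factor HIF-2 alpha, fell to 2.63 ± 0.0941 CPM in WT TCM, against 9.89 ± 0.813 CPM in WT naive (-1.91, adjusted p = 1.6e-20). Lcn2, a carrier of bacterial iron chelators that is also a neutrophil granule gene, fell (-1.16, adjusted p = 3.4e-12), and neutrophil markers summed to 4.08 to 5.46 CPM in WT TCM and 50.04 to 54.1 CPM in WT naive, with Mpo and Ly6g at 0 counts in WT TCM. Their part in the result was not tested. Uros, an enzyme of haem synthesis, fell by a small amount (-0.36, adjusted p = 0.0018).

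Of the 9 regulators of iron and of the response to haem, oxidants and hypoxia, 2 rose and 4 fell in the libraries labelled JMJD3 cKO TCM, beside 35.1% of all genes called, and 5 rose and 2 fell in TRAP1 KO TCM, beside 42.2%. Keap1, which holds NRF2 in check, averaged 123 ± 1.56 CPM in JMJD3 cKO TCM, against 153 ± 3.17 CPM in JMJD3 WT TCM (log2 fold change -0.31 with SE 0.035, adjusted p = 8.5e-10). Bach1, a haem-sensing repressor of Hmox1, averaged 186 ± 3.82 CPM in JMJD3 cKO TCM and 224 ± 2.62 CPM in JMJD3 WT TCM (log2 fold change -0.27 with SE 0.031, adjusted p = 2.3e-09). The mitochondrial iron importer gene Slc25a28 (-0.36, adjusted p = 3.1e-07) and Lcn2 (-0.50, adjusted p = 0.0013) fell, while neutrophil markers summed to 38.9 to 40.6 CPM in JMJD3 cKO TCM and 21.1 to 25.01 CPM in JMJD3 WT TCM. Abcg2, Slc39a8, a zinc and iron transporter, and Uros rose by 0.41, 0.41 and 0.27, with adjusted p = 0.0057, 0.0087 and 0.046, and DESeq2 called none of the 3 (adjusted p = 0.06, 0.064 and 0.2). When replicates were left out, the highest adjusted p of the edgeR test was 0.048 for Abcg2, 0.097 for Slc39a8 and 0.34 for Uros. The JMJD3 groups overlapped in CPM for Slc39a8.

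The iron regulatory proteins themselves, named here after their values were seen, are given next. Aco1, which encodes IRP1, averaged 61.2 ± 0.929 CPM in TRAP1 KO TCM and 72.3 ± 1.003 CPM in WT TCM (log2 fold change -0.23 with SE 0.037, adjusted p = 1.0e-07). Ireb2, which encodes IRP2, averaged 86.2 ± 1.71 CPM in TRAP1 KO TCM and 80.4 ± 1.05 CPM in WT TCM (log2 fold change 0.11 with SE 0.034, adjusted p = 0.0053). In the JMJD3 line Aco1 averaged 62.2 ± 1.41 CPM in the libraries labelled JMJD3 cKO TCM and 54.2 ± 2.73 CPM in JMJD3 WT TCM (log2 fold change 0.20 with SE 0.049, adjusted p = 9.9e-04), the opposite direction to the TRAP1 knockout. Ireb2 did not pass the test there (log2 fold change -0.04, 95% interval -0.13 to 0.04, adjusted p = 0.44).

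**Figure D5:**
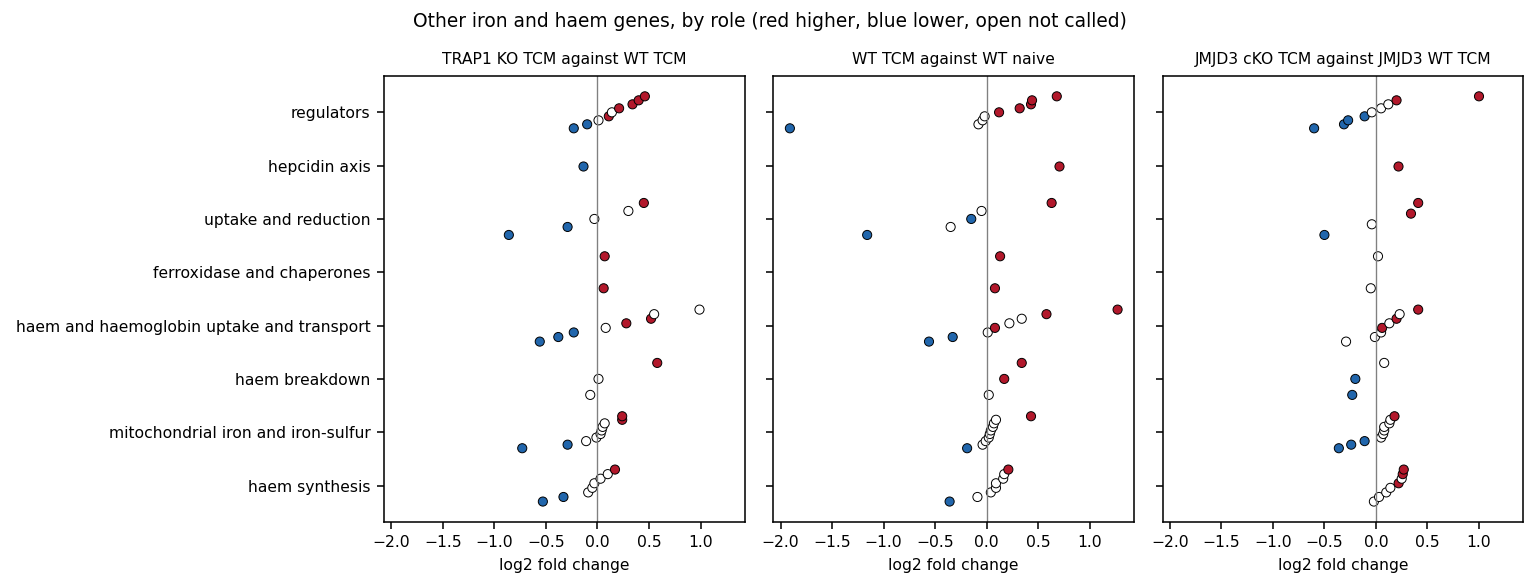
Log2 fold change of the other iron and haem genes tested, by role, in TRAP1 KO TCM against WT TCM, WT TCM against WT naive and JMJD3 cKO TCM against JMJD3 WT TCM (each point is 1 gene; red rose, blue fell, open did not pass the adjusted p of 0.05). Most points lie within 0.5 of 0, and the lowest, in the second panel, is Epas1 at -1.91.

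Between the wild types under TCM, 8 of the 10 genes were called in JMJD3 WT TCM against WT TCM, beside 61.3% of 14545 genes called. The groups did not overlap for 8 of the 10 and for 64.2% of all genes. After Tfrc the widest differences were those of Slc40a1 (log2 fold change -0.84 with SE 0.041, adjusted p = 4.2e-34) and Steap3 (log2 fold change 0.76 with SE 0.036, adjusted p = 6.6e-35). Fth1 averaged 14515 ± 225 CPM in JMJD3 WT TCM, against 13985 ± 364 CPM in WT TCM, and Cp was not called (log2 fold change -0.07, 95% interval -0.20 to 0.05, adjusted p = 0.3). Slc11a2 was higher in JMJD3 WT TCM as well (log2 fold change 0.40, adjusted p = 3.1e-20). Among the called members, the difference between the wild types was wider than that of either knockout from its own control for Tfrc, Steap3 and Slc11a2.

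Over the 16 libraries, the genes whose log2 CPM ran closest to that of Slc40a1 were Marcksl1 (0.996), Pde4b (0.995) and Cep85 (0.992), by Pearson r among 11988 candidates with a gene name. Those closest to Tfrc were Rab32 (0.994), Ank (0.993) and Top1 (0.993), and those closest to Hmox1 were Nrp1 (0.947), Ch25h (0.942) and Marco (0.933). The libraries fall into 5 groups and 2 sets, which these values share, so they describe the likeness of the patterns and are no test.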

How the data were processed

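The authors deposited raw read counts per gene, 1 table per library and 54532 identifiers in each, per the files' whole-number values. HISAT, StringTie, Bowtie2, RSEM and the mm10 build are named in the submitters' processing notes, with no versions or roles, and the counting of reads shared by several genes is not stated there. The 37 identifiers without a symbol in GENCODE M21 held at most 0.0036% of a library's counts.

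The count test was the edgeR 4.0.16 quasi-likelihood test under R 4.3.3 (TMM scaling, filterByExpr at its default minimum count of 10, robust fit, group means as the design). P-values were adjusted by Benjamini-Hochberg over all genes tested, and genes under 0.05 were called. The wild-type and TRAP1 libraries were fitted together (10 libraries), the JMJD3 line apart (6 libraries), and the difference between the knockout effects and the contrast of the wild types in all 16. Standard errors were derived from the log2 fold change and its F statistic, and 95% intervals from the t distribution on the total degrees of freedom. Levels are CPM on TMM-scaled totals over the 16 libraries. Totals of 15361604 to 22426820 counts limit precision for low genes. Replicates of a group differed by more than sampling noise, so none was taken for a repeat of another. That does not show whether they come from separate mice or cultures. The procedure was tested on simulated counts. Alternatives were RLE scaling, DESeq2 1.42.0, no filter on low counts, a replicate block, other sets of libraries in the fit and leaving out each replicate. Those for the contrast of the wild types were chosen after seeing the data.

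The members and lists were chosen with earlier results of these data known, so no p-value was adjusted over a list and no list was tested as a set. Named beside the members are, in each comparison, up to 4 called genes per direction of the other iron list with the largest change, at 5 CPM or more on average, and the 3 genes closest to Slc40a1, Hmox1 and Tfrc by Pearson r over the 16 libraries.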

Additional observations from a re-analysis of the deposited data

Results flagged for a closer look

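For 6 of the 10 genes the effect of the TRAP1 knockout differed from that of the JMJD3 knockout by a test of the difference itself, edgeR over all 16 libraries, which called 37.9% of all genes. The difference (TRAP1 effect minus JMJD3 effect, log2) was 1.01 for Slc40a1, 1.18 for Cp, -0.65 for Fth1, -0.51 for Ncoa4, 0.14 for Slc11a2 and 0.21 for Hmox1. Cp, Ncoa4 and Hmox1 were called in opposite directions in the knockouts: 0.67 in TRAP1 KO TCM and -0.51 in JMJD3 cKO TCM for Cp, -0.34 and 0.17 for Ncoa4, and 0.07 and -0.14 for Hmox1. Line, sex and set differ along with the knocked-out gene and cannot be told apart, and Kdm6b was not lower in the libraries labelled JMJD3 cKO TCM. In the TRAP1 KO TCM group, the 1 group with 4 libraries, none of 12 values tested had a library that stood apart from the others by the 95% critical value of Dixon, where chance flags about 1 in 20 such groups.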

How the results depend on the processing

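Of 902 results for single genes under an alternative, 864 kept direction and side of the threshold, 21 lost the call, 9 gained it and 8 changed sign. The changes of sign were those of Ftl1 in TRAP1 KO TCM, never called (-0.01 under the replicate block, -0.01 to 0.03 when replicates were left out), and the difference between the knockout effects for Steap3 (-0.02 to 0.02 when replicates were left out). Members called ranged from 7 to 9 in TRAP1 KO TCM, 9 to 10 with TCM alone and 7 to 8 in JMJD3 cKO TCM. Beside these, the genes called of all ranged from 5286 to 5920, 5383 to 6000 and 3340 to 5045. For the difference between the knockout effects, members called ranged from 5 to 7, beside 4665 to 5535 of all genes. DESeq2 called 13 of the other iron genes in JMJD3 cKO TCM, against 22 by edgeR, and 3340 of all genes, against 4728; the cause was not tested. By construction, the iron-responsive element was found in 3 members in the 5′ UTR alone and in 1 in the 3′ UTR alone. In the contrast of the wild types, 8 results lost the call and 1 gained it. Hmox1 lost its call under RLE scaling (adjusted p = 0.062) and DESeq2 (0.074). When replicates were left out, the highest adjusted p was 0.17 for Hmox1, 0.089 for Fth1 and 0.064 for Slc11a1.

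Replicate numbers did not pair the samples: deviations of same-numbered libraries correlated at -0.03 to 0.02. With the replicate block, 5577 genes were called in TRAP1 KO TCM (5944 without it), 5927 with TCM alone (5938) and 4579 in JMJD3 cKO TCM (4728), and the members called stayed 7, 9 and 7.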
